A study of Mus musculus with 18 samples.

Results

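Complement components and receptors were followed through sorted leukocytes that stayed in an inflamed mouse joint or ear, or that left it for the draining lymph node (LN). The 9 genes were chosen by name, with earlier results of these data known, out of 49585 genes in the count table. They are the chains of the recognition molecule C1q (C1qa, C1qb and C1qc), C4b and C3, the alternative pathway genes Cfb and Cfp, and the anaphylatoxin receptor genes C3ar1 and C5ar1. All 9 had values and passed the filter on low counts in every fit.

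Kaede mice carry a protein that light switches for good from green to red, which marks cells by where they were when the light was applied. Recipients were 6 to 10 weeks old. They received Th1-polarized OT-II CD4+ T cells, were immunized with 100 μg ovalbumin in complete Freund's adjuvant, and were challenged with 100 μg heat-aggregated ovalbumin in the footpad (joint) or ear pinna (skin). The tissue was converted on day 3 and viable CD45+ Kaede red+ cells were sorted 24 hours later from tissue (nonmigrated) or from LN (migrated). The other 2 groups, called steady state here, are CD45+ LN leukocytes whose source labels say that they migrated from a joint or an ear without naming inflammation. The joint ones carry PBS and KG in their titles and the skin ones Naive, so these groups were labelled differently, and their handling is not described in the sources used here. Titles of the inflamed skin libraries carry KR, so KG may mean Kaede green (unconverted), but the labels spell out neither. Whether Kaede red or unconverted cells were sorted for these groups is therefore unknown, and every comparison of migrated with steady-state libraries carries that limit. Each group had 3 libraries and each inflamed library held cells pooled from 8 to 18 mice, so individual animals were not measured. The p-values measure the spread between such pools.

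Complement is a set of proteins that tag microbes, immune complexes and dying cells and call in leukocytes. C1q binds antibody complexes and starts the classical pathway, in which C4 is cut. All pathways meet at C3, whose cleavage coats surfaces and releases C3a, and the alternative pathway amplifies that step through factor B (Cfb) with properdin (Cfp) as its stabilizer. C3a and C5a are sensed by the receptors encoded by C3ar1 and C5ar1 on myeloid cells. Liver makes most complement in plasma, while C1q is made largely by macrophages and dendritic cells, and complement activation is a known feature of inflamed joints.

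Levels are given as CPM, a gene's counts as a share of its library, scaled to a common library composition by the TMM method. Assigned counts ran from 35554698 to 43814403 in the inflamed joint libraries and from 19239531 to 22528895 in the inflamed skin libraries, so tissue site and library handling cannot be told apart. A count of 3, taken as the floor, equals 0.0616 to 0.18 CPM. The pan-leukocyte markers Ptprc, Coro1a and Laptm5 summed to 3694 to 5037 CPM in all 18 libraries. Summed hepatocyte markers (Alb, Apoa1 and Ttr) lay between 0 and 2.47 CPM. Skin nonmigrated replicate 3 stood apart from its group, with summed mast cell markers of 341.5 CPM against 52.6 and 55.5, fibroblast markers of 255 CPM against 60.0 and 62.4, and keratinocyte markers of 23.7 CPM against 138.9 and 281.3. Results that rest on that library are given with and without it. In bulk RNA, fewer cells of a type and less RNA per cell cannot be told apart.

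The C1q genes lie side by side on chromosome 4, minus strand, in GRCm38 (mm10): C1qb at 136880129 to 136886187, C1qc at 136889804 to 136893065 and C1qa at 136895917 to 136898803. C3 (57203970 to 57228136), C4b (34728380 to 34743882) and Cfb (34856374 to 34862518) are on chromosome 17, Cfp is on X (20925454 to 20931555), C3ar1 on chromosome 6 (122847138 to 122856161) and C5ar1 on chromosome 7 (16246743 to 16259540), all on the minus strand. Of Cfb's 2825 exon bases, 2246 are shared with the read-through gene Gm20547 on the same strand, and default HTSeq counting sets such reads aside, so Cfb values come from the remaining bases and understate its level. C4b has a near-identical neighbour, C4a, and reads that fit both genes equally would not have been counted. C4a lay between 1.08 and 3.40 CPM in all 18 libraries.

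RefSeq (GRCm38.p6) held promoters for 6 of the 9 genes. The 250 bases before the start are shown for C1qb, 1 of a trio that moved together, for C3, the gene whose change on migration differed between joint and skin, and for Cfp, whose change in the joint was the smallest of the 9. Capitals mark a C/EBP-type motif (TTGCNNAA), bound by transcription factors of myeloid cells and of acute inflammation. The windows are chr4:136886201-136886450, chr17:57228137-57228386 and chrX:20931556-20931805, all on the minus strand.
C1qb: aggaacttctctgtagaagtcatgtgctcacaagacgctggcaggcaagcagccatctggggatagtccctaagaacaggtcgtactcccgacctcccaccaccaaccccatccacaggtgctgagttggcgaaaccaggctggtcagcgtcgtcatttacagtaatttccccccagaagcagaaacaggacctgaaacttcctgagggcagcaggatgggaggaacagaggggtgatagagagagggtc
C3: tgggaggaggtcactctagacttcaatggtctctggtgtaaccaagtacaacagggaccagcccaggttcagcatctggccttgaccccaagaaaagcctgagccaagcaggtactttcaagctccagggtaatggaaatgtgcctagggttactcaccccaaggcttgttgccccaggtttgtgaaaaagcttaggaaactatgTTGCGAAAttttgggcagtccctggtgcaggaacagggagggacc
Cfp: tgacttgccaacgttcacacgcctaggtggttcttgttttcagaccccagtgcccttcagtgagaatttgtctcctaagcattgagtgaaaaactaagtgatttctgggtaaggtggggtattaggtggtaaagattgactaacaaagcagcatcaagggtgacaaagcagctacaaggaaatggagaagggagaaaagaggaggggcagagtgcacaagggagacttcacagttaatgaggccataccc
The C3 window held the C/EBP-type motif 45 to 38 bases before the start, a motif found in 9.56% of 32851 promoters searched on both strands. C1qc held a PU.1-type motif (GAGGAAG, 10.6% of promoters) on the opposite strand, 194 to 188 bases before its start. C5ar1 held an interferon-stimulated response element (GAAANNGAA, 7.13% of promoters) on the opposite strand, 66 to 58 bases before its start. No window of the 6 genes held the NF-kB-type motif (GGGANTTTC, 0.941%) or the E-box (CACGTG, 6.02%), and those of C1qb, C3ar1 and Cfp held none of the 5 motifs searched. A match is a description of these letters and no evidence of binding.

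**Figure D1:**
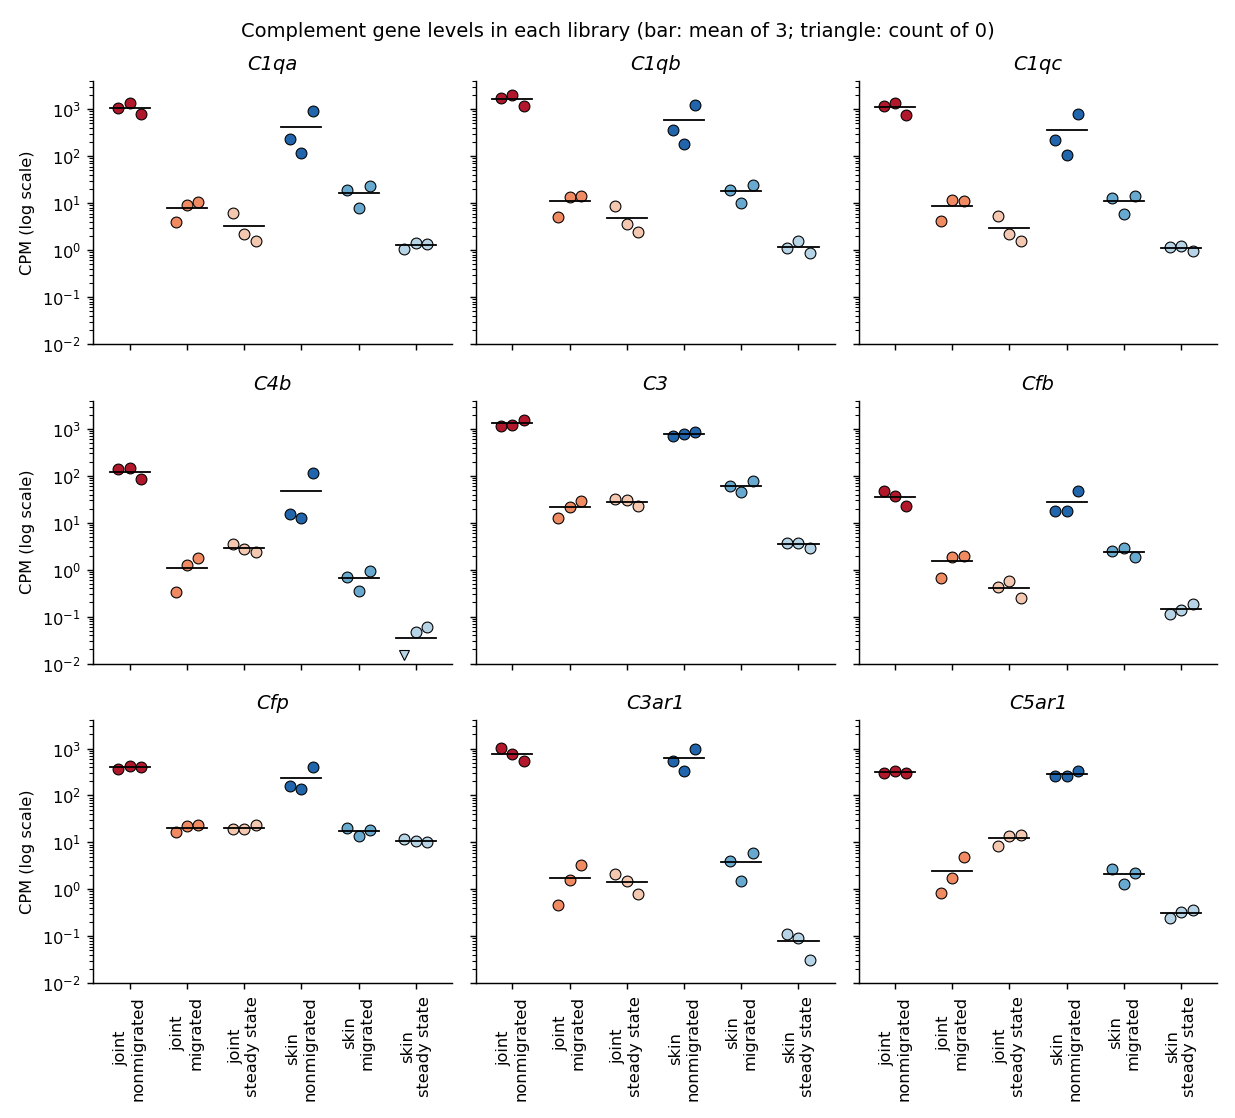
CPM on a log scale (y) of each complement gene in each of the 18 libraries (points), by group (x), with a bar at the mean of 3 libraries. A triangle marks the 1 C4b count of 0. For every gene the nonmigrated groups lie above the migrated groups of the same site, and skin steady state holds the lowest mean.

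Migrated and nonmigrated leukocytes were compared first, at each site. In the joint all 9 genes were lower in migrated cells, and the gap was widest for the receptor gene C3ar1 (433-fold) and narrowest for Cfp (19.3-fold). The call rule was an absolute log2 fold change above 1 together with an adjusted p (Benjamini-Hochberg, edgeR's quasi-likelihood test) below 0.001. Of 16777 genes tested, 12.6% were called lower and 8.8% higher in joint migrated cells, against 9 of 9 lower here. The median log2 fold change of the 9 genes was -6.95, against 0.02 over all genes tested.

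C1qa measured 1051, 1334 and 783 CPM in the joint nonmigrated replicates and 3.90, 9.27 and 10.7 CPM in the migrated ones. C1qb measured 1756, 2034 and 1172 CPM in nonmigrated and 5.15, 13.8 and 14.0 CPM in migrated cells. C1qc measured 1177, 1361 and 755 CPM in nonmigrated and 4.15, 11.5 and 10.9 CPM in migrated cells. The 3 chains of C1q therefore fell side by side, with migrated replicate 1 lowest for each. Their log2 fold changes were -7.05 for C1qa (SE 0.84, adjusted p 3.07e-05), -7.23 for C1qb (SE 0.79) and -6.95 for C1qc (SE 0.80). C4b, the next component of the classical pathway, measured 137, 147 and 86.5 CPM in nonmigrated and 0.33, 1.26 and 1.74 CPM in migrated cells, where the 3 libraries held 16, 54 and 81 counts. Its log2 fold change was -6.80 (SE 0.93, adjusted p 9.01e-05), the largest adjusted p of the 9 genes.

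C3, the protein on which the pathways converge, measured 1153, 1238 and 1524 CPM in joint nonmigrated and 12.4, 21.9 and 29.3 CPM in migrated cells. Its replicates were tight for so large a gap, with a log2 fold change of -5.94 (SE 0.33) and the smallest adjusted p of the 9 genes, 2.39e-07. Cfb, the protease of the alternative pathway convertase, measured 47.8, 37.1 and 22.4 CPM in nonmigrated and 0.68, 1.89 and 1.93 CPM in migrated cells (log2 fold change -4.58, SE 0.51). Cfp, which encodes properdin, measured 361, 430 and 407 CPM in nonmigrated and 16.8, 21.8 and 23.5 CPM in migrated cells (log2 fold change -4.27, SE 0.37). The alternative pathway genes thus had the smallest changes of the 9, though neither group overlapped the other for any gene. Non-overlap is common in this comparison, at 65.5% of genes tested.

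C3ar1, the receptor for C3a, measured 1007, 777 and 533 CPM in joint nonmigrated and 0.47, 1.59 and 3.28 CPM in migrated cells. C5ar1, the receptor for C5a that draws neutrophils and monocytes, measured 296, 329 and 306 CPM in nonmigrated and 0.84, 1.77 and 4.87 CPM in migrated cells. Both receptors were even among nonmigrated replicates relative to the gap and were lowest in migrated replicate 1. The log2 fold change was -8.76 for C3ar1 (SE 0.79, adjusted p 4.44e-06) and -6.96 for C5ar1 (SE 0.54, adjusted p 1.61e-06). Each of the 9 genes stayed called when any single joint library was left out.

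In the skin the same 9 genes were lower in migrated cells, 9 of 9, where 12.4% of 16777 genes were called lower and 8.49% higher. C3ar1 and C5ar1 changed most and Cfb and C3 least. Without skin nonmigrated replicate 3 the smallest log2 fold changes were those of Cfb (-2.91), Cfp (-3.12) and C1qa (-3.38), followed by C3 (-3.60). The receptor genes still changed most in that fit, C5ar1 by -6.96 and C3ar1 by -6.84. C1qa measured 235, 115 and 919 CPM in skin nonmigrated and 19.0, 7.84 and 23.3 CPM in migrated cells. C1qb measured 353, 185 and 1250 CPM in nonmigrated and 19.4, 9.89 and 23.97 CPM in migrated cells. C1qc measured 216, 107 and 785 CPM in nonmigrated and 12.99, 5.79 and 14.2 CPM in migrated cells. Nonmigrated replicate 3 alone lay in the joint range for all chains, 3.54 to 3.91 times the higher of the other 2 replicates. The log2 fold changes were -4.66 for C1qa (SE 0.75, adjusted p 2.89e-04), -5.07 for C1qb (SE 0.72) and -5.07 for C1qc (SE 0.74), and without replicate 3 they were -3.38, -3.92 and -3.87.

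C4b measured 15.5, 12.6 and 115.7 CPM in skin nonmigrated and 0.70, 0.35 and 0.93 CPM in migrated cells, where the libraries held 15, 7 and 21 counts. Its log2 fold change of -6.16 (SE 0.98, adjusted p 2.66e-04) was -4.39 without nonmigrated replicate 3. The C4b and C1qa calls were lost, at adjusted p 0.00130 to 0.00204, when any 1 skin migrated library was left out, and the C1qc call was lost without skin migrated replicate 2 (adjusted p 0.00103). When only the 6 skin libraries were fitted, 5 of the 9 genes were called, with C4b and the C1q genes at adjusted p 0.00182 to 0.00366.

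C3 was even across the skin replicates, measuring 703, 766 and 842 CPM in nonmigrated and 60.5, 45.1 and 76.1 CPM in migrated cells (log2 fold change -3.67, SE 0.30, adjusted p 2.09e-06). Nonmigrated replicate 3 was 1.15 times the mean of the other 2 for C3 and 1.30 times for C5ar1, against 5.25 times for C1qa and 8.23 times for C4b. Cfb measured 18.2, 17.9 and 47.2 CPM in nonmigrated and 2.47, 2.85 and 1.91 CPM in migrated cells (log2 fold change -3.53, SE 0.50). Cfp measured 161, 138 and 401 CPM in nonmigrated and 19.9, 13.5 and 18.3 CPM in migrated cells (log2 fold change -3.76, SE 0.37). The 9 genes thus split within the skin tissue pools: C3 and C5ar1 were even over the 3 replicates, and the other genes were 2.24 to 8.23 times higher in replicate 3 than in the mean of the other 2.

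C3ar1 measured 543, 339 and 986 CPM in skin nonmigrated and 4.05, 1.498 and 5.89 CPM in migrated cells. C5ar1 measured 261, 259 and 338 CPM in nonmigrated and 2.65, 1.30 and 2.26 CPM in migrated cells. The receptors had the largest skin changes, with log2 fold changes of -7.34 (SE 0.75, adjusted p 1.03e-05) and -7.10 (SE 0.56, adjusted p 1.57e-06). No skin group overlapped the other for any of the 9 genes, as for 61.6% of genes tested.

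**Figure D2:**
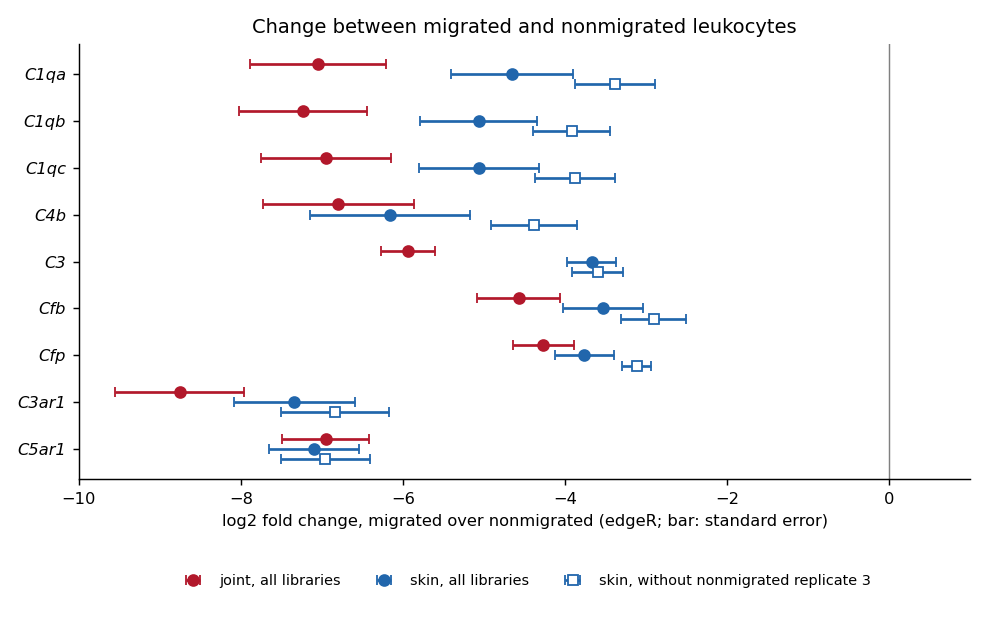
Log2 fold change of migrated over nonmigrated cells (x) with its standard error (bars) for each complement gene (y), in the joint (red), in the skin (filled blue) and in the skin without nonmigrated replicate 3 (open squares). All points lie below 0. The joint and skin C3 points, at -5.94 and -3.67, are apart, and the C5ar1 points, at -6.96 and -7.10, are close.

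The difference between the joint and skin changes was tested as an interaction, called at an adjusted p under 0.05. C3 was the 1 gene of 9 that passed, with a log2 difference of joint over skin change of -2.27 (SE 0.39, adjusted p 0.00621), where 7.98% of genes were called in all, 2.97% in that direction and 5.01% in the other. C1qa (-2.39, SE 0.94, adjusted p 0.134) and C1qb (-2.16, SE 0.87, adjusted p 0.143) did not pass, and C5ar1 gave 0.15 (SE 0.64, adjusted p 0.916). With the replicate number as a block, C1qa (-2.85, adjusted p 0.0337) and C1qb (-2.60, adjusted p 0.0471) passed. C3 kept its call when any 1 library was left out, with values of -2.54 to -1.97. Without skin nonmigrated replicate 3, 7 of the 9 genes passed, among them C1qa at -3.66 (SE 0.69, adjusted p 0.00417), C1qc at -3.08, C4b at -2.42 and Cfp at -1.15, while the count over all genes rose from 1338 to 4044. C3ar1 (-1.92, adjusted p 0.119) and C5ar1 (0.01, adjusted p 1.00) did not pass in that fit either.

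Both ends of that C3 difference can be read from the levels. C3 was 1305 ± 194 CPM (SD, n = 3) in joint nonmigrated and 771 ± 69.5 CPM in skin nonmigrated cells, and the groups did not overlap, which held for 37.9% of genes tested. In migrated cells the order was turned, at 21.2 ± 8.47 CPM from the joint and 60.5 ± 15.5 CPM from the skin, again without overlap, as for 28.2% of genes tested. Neither contrast met the threshold for a call. In edgeR's quasi-likelihood test the log2 difference of joint over skin was 0.76 in nonmigrated cells (SE 0.27, adjusted p 0.0565) and -1.51 in migrated cells (SE 0.28, adjusted p 0.0212).

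Between joint and skin nonmigrated cells, 0 of the 9 genes were called, where 3.05% of 16777 genes were (1.14% higher and 1.9% lower in the joint). The unadjusted p was under 0.05 for C1qb, C1qc, C3 and Cfp, as it was for 6794 of the 16777 genes, and the DESeq2 Wald test called 0 as well. The C1q genes were nominally higher in the joint by 1.32 to 1.57 on the log2 scale (adjusted p 0.0844 to 0.151). Without skin nonmigrated replicate 3, C4b (3.14, SE 0.45, adjusted p 4.08e-04) and Cfp (1.42, SE 0.19, adjusted p 2.33e-04) were called higher in the joint, and the C1q genes reached 2.59 to 2.77 (adjusted p 0.00196 to 0.00319). The receptors were level between the tissues, C3ar1 at 0.31 (SE 0.56) and C5ar1 at 0.12 (SE 0.41).

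Between migrated cells from joint and skin, 0 of the 9 genes and 0% of all genes tested were called by edgeR's quasi-likelihood test. At an unadjusted p under 0.05 there were 2770 genes, of which C3 was the sole member of the 9. The DESeq2 Wald test called C3 in joint migrated vs skin migrated cells (-1.51, adjusted p 2.25e-05), 1 of 177 genes it called. For the other 8 genes the log2 differences lay between -1.11 and 0.72, with standard errors of 0.34 to 1.05 and overlapping groups. None of these 8 differences had an unadjusted p under 0.05.

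Macrophage markers moved with these genes. All 8 macrophage markers (Adgre1, Cd68, Mertk, Csf1r, Fcgr1, Mrc1, Cd163 and Lyve1) were called lower in migrated cells at both sites. Their sum ran from 4340 to 5870 CPM in joint nonmigrated and from 45.5 to 106 CPM in joint migrated cells. In the skin it ran from 1944 to 5481 CPM in nonmigrated, the highest being replicate 3, and from 83.4 to 144 CPM in migrated cells. Markers were above 0 in all migrated libraries but for Lyve1, which had a count of 0 in 1 skin migrated library. Summed neutrophil markers fell likewise, from 5460 to 16541 CPM down to 38.5 to 100.6 CPM in the joint and from 1555 to 2752 CPM down to 16.7 to 34.0 CPM in the skin, and all 7 were called lower at both sites. Summed fibroblast markers were 128.6 to 362 CPM and 60.0 to 255 CPM in joint and skin nonmigrated and 1.05 to 2.17 CPM in all migrated libraries, with 6 of 6 called lower at both sites. Other lists rose. In joint migrated cells 6 of 6 T cell, 3 of 5 B cell and 3 of 6 dendritic cell markers were called higher. In skin migrated cells 2 of 6 T cell, 5 of 5 B cell and 2 of 6 dendritic cell markers were called higher. The part of these cell types in the result was not tested.

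Set against that marker sum, the genes did not all behave alike. For each 100 CPM of summed macrophage markers, joint nonmigrated libraries held 12.3 to 18.4 CPM of C3ar1 and joint migrated libraries 1.04 to 3.09 CPM. Skin libraries held 17.4 to 17.99 CPM of C3ar1 in nonmigrated and 1.80 to 4.09 CPM in migrated cells. C3ar1 was therefore lower relative to this marker sum after migration at both sites, but the sum is weighted to the markers of highest level. Single markers had log2 fold changes of -4.86 to -8.32 in the joint and -4.53 to -7.74 in the skin. Lyve1 fell most at both sites. C3ar1 had -8.76 and -7.34. Cfp went the other way, from 6.60 to 9.39 CPM up to 22.1 to 36.8 CPM in the joint and from 5.19 to 7.32 CPM up to 12.7 to 17.4 CPM in the skin. C3 held its ratio in the joint (21.1 to 35.1 CPM in nonmigrated, 23.7 to 27.7 CPM in migrated cells) but not in the skin (15.4 to 39.4 and 52.8 to 54.1 CPM). These ratios are descriptions of bulk pools and were given no test.

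**Figure D3:**
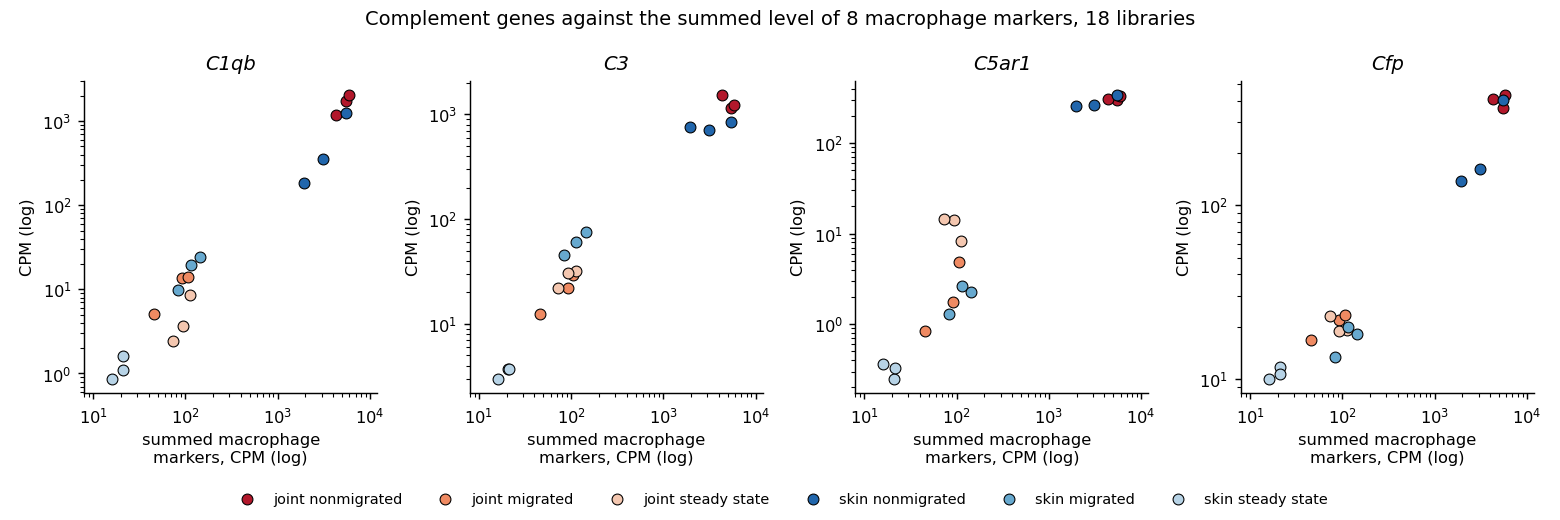
CPM of C1qb, C3, C5ar1 and Cfp (y, log scale) against the summed CPM of 8 macrophage markers (x, log scale), 1 point per library, coloured by group. Nonmigrated libraries, with marker sums of 1944 to 5870 CPM, sit at the upper right of each panel. In the C5ar1 panel the joint steady-state libraries lie above the joint migrated libraries at similar marker sums.

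The LN libraries showed which complement genes are present away from the tissue, and how migrated cells compare with node leukocytes at steady state. Per kilobase of exon, Cfp had the highest mean level of the 9 genes in skin steady state, at 6.22 ± 0.505 CPM per kilobase (SD, n = 3), and in joint steady state, at 11.8 ± 1.36. C1qa followed in skin steady state at 1.21 ± 0.195 and C3 in joint steady state at 5.49 ± 1.02, neither within the SD of Cfp. Among joint migrated cells Cfp (11.9 ± 2.01) and C1qb (10.1 ± 4.64) did not differ beyond their spread. In skin migrated cells C1qb (16.3 ± 6.60), C1qa (16.1 ± 7.69) and C3 (11.8 ± 3.01) had higher means than Cfp (9.91 ± 1.92), with overlapping SDs. In nonmigrated joint tissue the order was led by C1qb (1520 ± 404), C1qa (1015 ± 265) and C1qc (569 ± 161), followed by C3 (254 ± 37.8) and Cfp (230 ± 20.1), and of these C1qb and C1qa, and C3 and Cfp, had overlapping SDs.

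Joint migrated cells and joint steady-state node cells differed in both directions in these genes. None of the 9 was called by edgeR's quasi-likelihood test, where 15.9% of 17107 genes were (12.4% higher and 3.5% lower), while 6 of 9 had an unadjusted p under 0.05, as did 9584 of the 17107 genes, and the DESeq2 Wald test called C5ar1 and Cfb. C5ar1 measured 8.38, 14.0 and 14.7 CPM in steady state against 0.84, 1.77 and 4.87 CPM in migrated cells (log2 fold change -2.28, SE 0.47, adjusted p 0.00131). Cfb measured 0.42, 0.56 and 0.24 CPM in steady state and was higher in all 3 migrated libraries (1.90, SE 0.41, adjusted p 0.00190). These lay just outside the threshold, on opposite sides of 0. C5ar1 was also called with no filter, with the replicate block and with all 18 libraries in 1 fit (adjusted p 3.83e-07 to 2.24e-04). C5ar1 was called without joint migrated replicate 3 (-3.20, adjusted p 2.74e-05) and Cfb without joint migrated replicate 1 (2.22, adjusted p 1.30e-04). C3, at 31.8, 30.6 and 22.2 CPM in steady state, gave -0.38 (SE 0.26, adjusted p 0.238), and Cfp gave 0.05 (SE 0.16, adjusted p 0.810). The C1q genes gave 1.20 to 1.59 (adjusted p 0.0110 to 0.0468). C4b gave -1.35 (SE 0.48, adjusted p 0.0318) and C3ar1 0.33 (SE 0.59, adjusted p 0.670). With no filter C1qc (adjusted p 1.60e-04) and Cfb (adjusted p 2.10e-04) were called in edgeR. In this comparison 6 of 7 neutrophil and 5 of 5 B cell markers were called lower (median log2 fold changes -3.62 and -2.31). Of the mast cell markers 5 of 5 and of the dendritic cell markers 4 of 6 were called higher in migrated cells. The part of these cells in these values was not tested.

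In the skin, migrated cells stood well above the steady-state node, with 7 of 9 genes called higher, where 25.1% of 17107 genes were called, 16.6% higher and 8.51% lower. C3 measured 3.70, 3.68 and 2.96 CPM in steady state and 45.1 to 76.1 CPM after migration, which gave a log2 fold change of 4.16 (SE 0.30, adjusted p 6.73e-08). The C1q genes rose by 3.32 to 3.92 on the log2 scale from steady-state means of 1.12 to 1.26 CPM. Cfb rose by 4.08 (SE 0.48) from 5, 6 and 6 counts, all above the floor. C3 and Cfb thus moved with C1q at this site.

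C3ar1 held 5, 4 and 1 counts in the skin steady-state libraries, with 10 in all against 250 in skin migrated cells, a ratio of 47.0 (exact 95% interval 25.2 to 99.3, counting error alone) and a fitted log2 fold change of 5.52 (SE 0.83, adjusted p 6.22e-05). C4b held 0, 2 and 2 counts, all under the floor, against 43 in migrated cells, a ratio of 20.2 (7.35 to 77.6). The fitted C4b value of 4.21 (SE 0.85, adjusted p 7.07e-04) depends on the prior count. Its call was lost without skin migrated replicate 1 or 3 or without any 1 of the skin steady-state libraries, at adjusted p 0.00233 to 0.00454. The C4b call was also lost in edgeR with the replicate block (adjusted p 0.00292) and with all 18 libraries in 1 fit (adjusted p 0.0369). C5ar1 (2.77, SE 0.60, adjusted p 0.00121) and Cfp (0.70, SE 0.16, adjusted p 0.00201) were not called by edgeR's quasi-likelihood test with the filter. C5ar1 was called by the DESeq2 Wald test (adjusted p 4.44e-05) and, in edgeR, with no filter, with the replicate block, with only the groups compared and with all 18 libraries (adjusted p 1.17e-06 to 9.00e-04). The groups did not overlap for any of the 9 genes, which held for 71.2% of genes tested. Macrophage markers moved the same way, with 5 of 7 called higher and Cd163 lower and with sums of 83.4 to 144 CPM against 16.1 to 21.3 CPM. Of the monocyte markers 2 of 4 were called higher, and of the B cell markers 5 of 5 lower. The part of these cells was not tested.

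The steady-state nodes themselves differed. C3, C5ar1 and C4b were called higher in the joint-draining than in the skin-draining node, 3 of 9, where 1.4% of 17107 genes were called higher and 0.0409% lower. C3 was 28.2 ± 5.23 CPM (SD, n = 3) against 3.45 ± 0.42 CPM, a log2 difference of 3.02 (SE 0.29, adjusted p 2.95e-05). C5ar1 was 12.3 ± 3.45 CPM against 0.312 ± 0.0608 CPM (5.30, SE 0.59, adjusted p 8.88e-05). C4b held 377 counts in the joint node libraries and 4 in the skin node libraries, a ratio of 86.9 (33.6 to 320.4). Without any 1 skin steady-state library C3 alone of the 3 stayed called, with C4b and C5ar1 at adjusted p 0.00126 to 0.00183. C3ar1 (4.07, SE 0.84, adjusted p 0.00851), Cfp (0.91, SE 0.16, adjusted p 0.00324) and the C1q genes (1.38 to 2.02, adjusted p 0.0295 to 0.152) were not called by edgeR's quasi-likelihood test. C3ar1 was called by the DESeq2 Wald test (4.16, adjusted p 1.58e-06), with no filter (adjusted p 3.44e-06) and with only the groups compared (adjusted p 6.15e-04), and C1qb with no filter (adjusted p 4.99e-05). In all 9 genes the groups did not overlap, which held for 31.1% of genes tested.

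Neutrophil markers moved with the node difference, while 0 of 5 mast cell markers were called. Summed neutrophil markers were 430 to 850 CPM in the joint and 12.9 to 20.6 CPM in the skin steady-state node, with 7 of 7 called. The summed macrophage markers were 73.1 to 112 CPM against 16.1 to 21.3 CPM, with 3 of the 7 tested called (Csf1r, Cd68 and Fcgr1). Lyve1 was at a count of 0 in 1 skin steady-state library. Of the monocyte markers 3 of 4 were called higher in the joint node (median log2 difference 1.67). Their sums were 343 to 425 CPM there against 190 to 218 CPM in the skin node. For each 100 CPM of macrophage markers, C5ar1 reached 7.47 to 20.1 CPM in the joint node and 1.18 to 2.28 CPM in the skin node. The part of these cells in the difference was not tested. The joint libraries carry another title than the skin ones, and handling and site cannot be told apart.

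**Figure D4:**
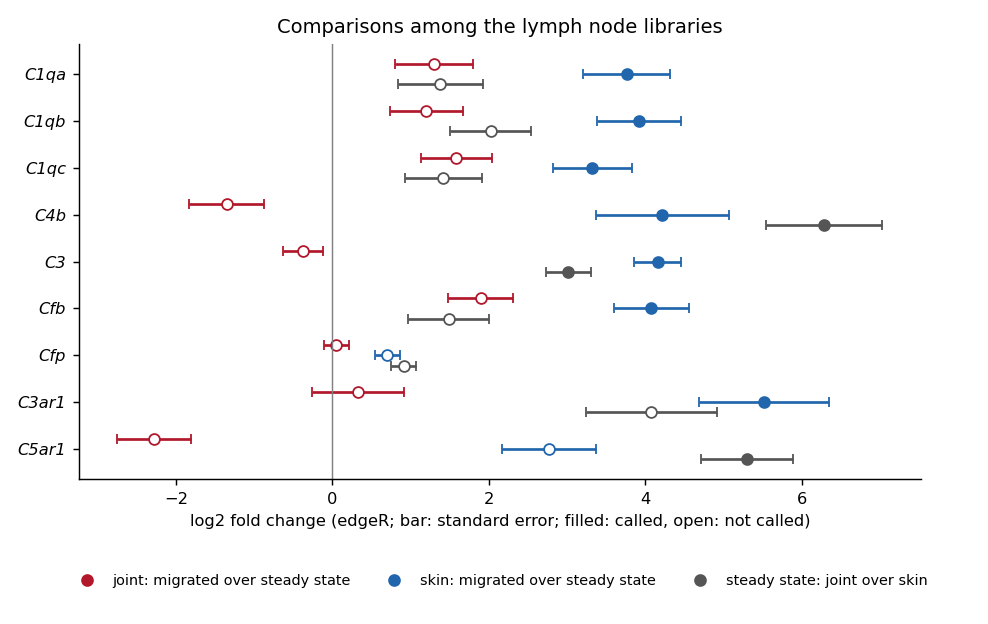
Log2 fold changes (x) with standard errors (bars) for each complement gene (y) among the LN libraries, with filled points called and open points not called. Skin migrated cells over skin steady state (blue) lie above 0 for all genes, whereas joint migrated cells over joint steady state (red) lie on both sides, from -2.28 for C5ar1 to 1.90 for Cfb. Joint over skin steady state (grey) lies above 0 for all genes.

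The change from steady state to migrated cells was tested for a difference between the sites. It was more positive in the skin for 7 of 9 genes, against 5.86% of 17107 genes called in that direction. This contrast equals the joint over skin difference in migrated cells less that between the steady-state groups, which were labelled differently. At steady state that difference was 5.30 for C5ar1, 6.28 for C4b, 4.07 for C3ar1 and 3.02 for C3. In migrated cells, from the fit of the inflamed libraries, it was 0.26, 0.72, -1.11 and -1.51, none called. Handling and site cannot be told apart here. C3 led by adjusted p (-4.54, SE 0.39, adjusted p 3.21e-05), followed by C5ar1 (-5.04, SE 0.76, adjusted p 0.00135), C4b (-5.56, SE 0.98, adjusted p 0.00352) and C3ar1 (-5.19, SE 1.03, adjusted p 0.00748). C1qb (-2.72), Cfb (-2.18) and C1qa (-2.46) were nearer the threshold at adjusted p 0.0258, 0.0478 and 0.0489, and C1qc (-1.74, adjusted p 0.114) and Cfp (-0.65, adjusted p 0.0868) did not pass. Among the markers, 5 of 7 macrophage, 6 of 7 neutrophil and 3 of 4 monocyte markers were called in the same direction. In the other direction 1 macrophage marker, 5 of 5 B cell and 3 of 5 mast cell markers were called. The part of these cells was not tested. C3, C5ar1, C4b and C3ar1 stayed called when any 1 of the 12 libraries was left out. C1qa and Cfb each lost their call in 9 of those 12 fits and C1qb in 5, at adjusted p up to 0.139, 0.125 and 0.0715. With all 18 libraries in 1 edgeR fit C4b was not called (-5.56, SE 1.76, adjusted p 0.0801), nor were C1qa, C1qb and Cfb.

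Across all 18 libraries the 3 C1q genes rose and fell together. Pearson's r of log2(CPM + 1) was 0.998 for each pair of C1q genes (n = 18 libraries in 6 groups, which share depth and group differences). Among all 36 pairs of the 9 genes it ran from 0.895 for C1qa with C5ar1 to 0.998. Per kilobase, C1qb stood at 0.608 to 1.60 times C1qa and C1qc at 0.327 to 0.670 times C1qa, while C1qa itself ranged from 1.03 to 1334 CPM. In nonmigrated libraries alone the ranges were 1.30 to 1.60 and 0.460 to 0.604. The ratios shifted between groups: C1qc stood at 0.327 to 0.398 times C1qa in skin migrated and 0.548 to 0.670 times in joint migrated libraries.

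Genes outside the 9 with the most similar pattern were sought among 18147 genes by the same r. C1qa, C1qb and C1qc shared Adam9 as their nearest gene (r 0.994 to 0.996). For C3 the nearest were Ccl9, Csf1r and Bst1 (0.989 to 0.991), for C4b Abca9 (0.993) and Nfam1 (0.990), and for Cfb Ctsb, Spsb2 and Cav2 (0.990 to 0.992). Cfp was nearest to Ctsc, P2ry12 and Trem2 (0.993 to 0.994), C3ar1 to Parvb, Pid1 and Dpep2 (0.996 to 0.998) and C5ar1 to Wfdc17, Cd14 and Fpr2 (0.991 to 0.997).

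Of 40 other complement genes, 21 passed the filter in the inflamed libraries. Among them 10 were called lower and 3 higher in joint migrated cells, and 7 were called lower and 3 higher in skin migrated cells, so this larger set did not move in 1 direction. Its median log2 fold change was -1.90 in the joint and -1.47 in the skin. Early classical proteases fell, with log2 fold changes of -6.07 in the joint and -4.05 in the skin for C1ra and of -6.05 in the joint for C1s1, which was also called lower in the skin. Of the terminal pathway genes, 2 of 7 passed the filter and 0 were called at either site, while Hc, which encodes C5, was called higher in skin migrated than in skin steady-state cells (log2 fold change 3.35, SE 0.48).

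Receptors split by kind. Itgam, the alpha chain of complement receptor 3 on myeloid cells, had log2 fold changes of -6.15 in the joint and -5.39 in the skin, and C5ar2, the second C5a receptor, had -5.02 in the skin. Vsig4, the macrophage receptor for C3b, was called lower in the joint (34.6 ± 16.8 to 0.0358 ± 0.0108 CPM, SD, n = 3) and was at a count of 0 in all skin migrated libraries, from 0.18 to 0.83 CPM in skin nonmigrated cells. Cr2, the C3d receptor of B cells, was higher in migrated cells by 5.14 in the joint (SE 0.38, adjusted p 1.20e-06) and by 6.41 in the skin (SE 0.53, adjusted p 2.39e-06), where nonmigrated libraries held 0, 1 and 6 counts. Cr2 reached 404 to 507 CPM in joint and 280 to 300 CPM in skin steady-state nodes. Summed B cell markers moved the same way, at 102 to 260 CPM in joint nonmigrated, 630 to 879 CPM in joint migrated and 3722 to 4022 CPM in joint steady-state libraries, and their part was not tested.

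Regulators also split. Serping1, the inhibitor of C1 proteases, was called lower in joint migrated cells (log2 fold change -6.56, SE 0.87). Cd55, which speeds the decay of convertases on the cell surface, was higher in migrated cells by 1.97 in the joint and 1.76 in the skin, but lower in migrated than in steady-state node cells, with log2 fold changes of -2.10 and -3.20. Clu, whose product clusterin binds the terminal complex, was higher in migrated cells than in both neighbours. It rose from 4.23 ± 1.22 to 85.8 ± 42.0 CPM in the joint and from 5.84 ± 2.66 to 58.9 ± 12.5 CPM in the skin, against 0.17 ± 0.02 and 0.69 ± 0.28 CPM at steady state (SD, n = 3). Clu thus had its highest level in the migrated groups, where the 9 genes lay below their nonmigrated levels. Against steady state the 9 genes did not run opposite to Clu. In skin migrated cells 7 of the 9 were called higher than at steady state, and in joint migrated cells 0 of the 9 were called.

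**Figure D5:**
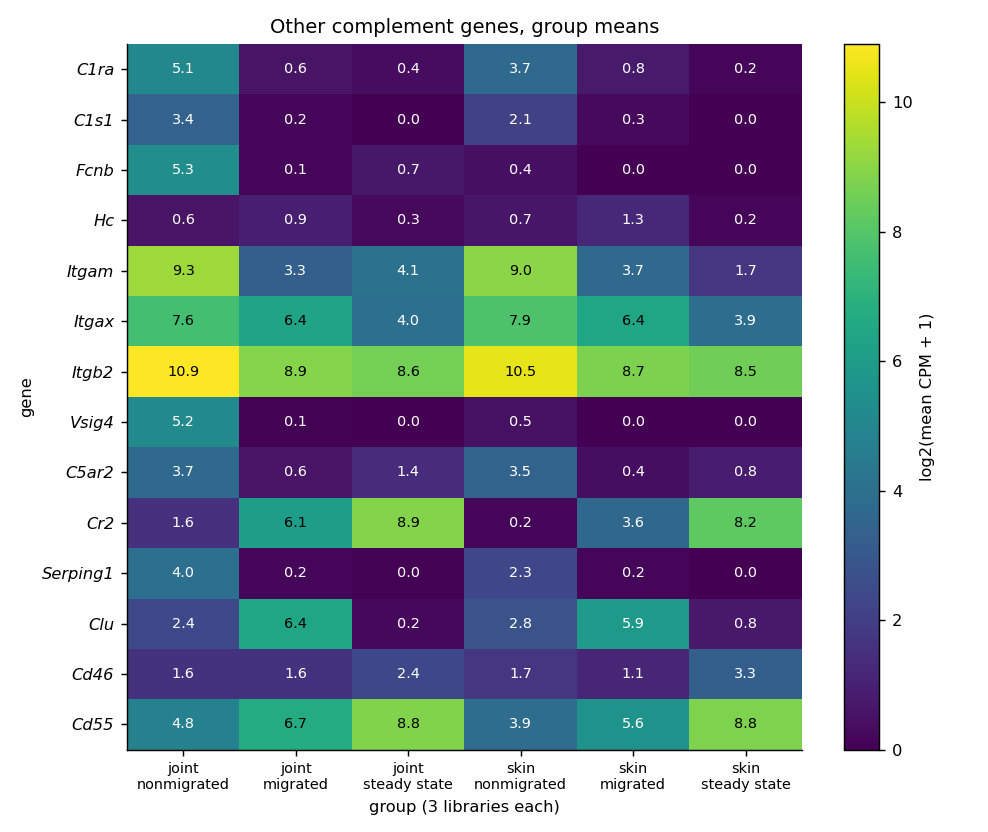
Log2 of the mean CPM plus 1 (colour and printed value) in each group (x) for 14 other complement genes, each called in at least 1 comparison (y). Itgam stands at 9.3 in joint nonmigrated and 3.3 in joint migrated cells, Cr2 and Cd55 are highest in the steady-state nodes, and Clu is highest in the migrated groups.

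Between nonmigrated cells of joint and skin, 3 of 21 other complement genes were called, all higher in the joint. Fcnb, the ficolin of immature granulocytes, measured 14.6, 43.1 and 60.6 CPM in the joint and 0.18, 0.53 and 0.36 CPM in the skin (log2 difference 6.76, SE 0.69, adjusted p 2.46e-04). Vsig4 gave 6.32 (SE 0.60, adjusted p 1.73e-04) and Cr2 3.83 (SE 0.59, adjusted p 9.80e-04). Summed neutrophil markers were 5460 to 16541 CPM in the joint and 1555 to 2752 CPM in the skin, with 2 of 7 called higher in the joint. Summed B cell markers were 102 to 260 CPM in the joint and 4.56 to 11.4 CPM in the skin, with 5 of 5 called higher in the joint. Of the 8 macrophage markers 0 were called. The part of these cell types was not tested. Among other complement genes in the node libraries, Itgam (2.79, SE 0.22) was called higher in the joint than in the skin steady-state node, beside C3, C5ar1 and C4b.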

How the data were processed

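RNA from sorted CD45+ leukocytes was sequenced as paired reads. Per the authors' methods, reads were trimmed with Trim Galore, aligned to mm10 with TopHat2 using version 87 of the mouse transcriptome, and counted with HTSeq under default settings. The deposited values are raw read counts per Ensembl gene, and strand and multi-mapping options beyond the defaults were not stated. The 5 HTSeq summary lines, 11.3 to 15.1% of all counts, were left out of library sizes and tests.

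Counts were normalized by TMM and tested with edgeR 4.0.16 (quasi-likelihood, R 4.3.3), with genes filtered at a minimum count of 10 and p-values adjusted by Benjamini-Hochberg over all genes tested. The 12 inflamed libraries were fitted together for the migration and site comparisons, and the 12 LN libraries for the steady-state comparisons. Calls required an adjusted p under 0.001 and an absolute log2 fold change above 1, and interactions an adjusted p under 0.05. The code was tested on simulated data. Alternatives were DESeq2 1.42.0 (its size factors and its Wald test), no filter, an adjusted p under 0.05, other sets of libraries in the fit, a replicate block and leaving out each library.

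Counting intervals cover counting error alone. Per-kilobase levels used the union of annotated exons. All 9 genes were tested in every comparison, though not every value is printed. Of the other complement genes, up to 4 called genes per list and comparison, by smallest adjusted p, could be named, and 3 nearest genes per member. Results for 1 other gene are not reported here. The members and lists were chosen with earlier results of these data known.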

Additional observations from a re-analysis of the deposited data

Results flagged for a closer look

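Changes that differed between joint and skin are listed here, each from edgeR's quasi-likelihood test of the difference itself (joint change minus skin change, log2 scale). On migration C3 differed by -2.27 (SE 0.39, adjusted p 0.00621), from -5.94 in the joint and -3.67 in the skin. Between steady-state and migrated node cells C3 differed by -4.54 (SE 0.39, adjusted p 3.21e-05), from -0.38 in the joint and 4.16 in the skin. C4b differed by -5.56, with -1.35 in the joint and 4.21 in the skin, where the steady-state libraries held 0, 2 and 2 counts. C5ar1 differed by -5.04, with -2.28 in the joint and 2.77 in the skin. C3ar1 differed by -5.19, with 0.33 in the joint and 5.52 in the skin. The differences for C1qb (-2.72), C1qa (-2.46) and Cfb (-2.18) were smaller, and both sites had positive changes. All these node differences include the gap between the steady-state groups, which were labelled differently. Groups of 3 libraries were not tested for outlying samples.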

How the results depend on the processing

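Of 1124 alternative values of single genes, 1016 kept their direction and their side of the threshold, 59 lost and 41 gained a call, and 8 changed sign. All 9 genes were called in the joint migration comparison under every alternative run. The skin migration comparison gave 5 called genes when only the groups compared were fitted. Migrated cells of joint and skin gave 1 (C3) at an adjusted p under 0.05 and 1 by the DESeq2 Wald test. Joint migrated against steady state gave 6 at an adjusted p under 0.05, 2 by the DESeq2 Wald test, 3 with no filter and 1 with all 18 libraries in 1 fit. Joint against skin steady state gave 5 at an adjusted p under 0.05 and 5 with no filter. The node interaction gave 3 (C3, C5ar1 and C3ar1) with all 18 libraries. Leaving out 1 library at a time gave 0 to 2 called genes between nonmigrated groups, 1 to 7 for the site by migration interaction (7 without skin nonmigrated replicate 3), 0 to 1 for joint migrated against steady state, 1 to 3 between steady-state nodes and 4 to 7 for the node interaction. The cause was not tested.

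In those fits the log2 values that changed sign ranged from -0.59 to 0.051 (C1qc) and from -0.64 to 0.70 (C5ar1) between migrated groups, from -0.76 to 0.59 for the C5ar1 site by migration interaction, and from -0.46 to 0.75 (C3ar1) and -0.041 to 0.16 (Cfp) for joint migrated against steady state, none of them called.

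The labels do not say that a replicate number marks a shared batch or animals. Same-number correlations of deviations were 0.021 to 0.254 between joint nonmigrated and migrated cells and 0.073 to 0.173 in the skin, where 5 of 6 and 6 of 6 libraries correlated best with their own number, a hint of pairing from the data and not from the design. The authors' methods describe no replicate block, so the main fits did not treat the numbers as pairs. Against steady state the correlations were -0.185 to -0.021 and 0 of 12 libraries correlated best with their own number. With a replicate block, 3 genes (C3, C1qa and C1qb) were called in the site by migration interaction, where C5ar1 became -0.10, 1 in joint migrated against steady state and 4 in the node interaction. With the block, skin migration called 8 (without Cfb, adjusted p 0.00151) and the steady-state nodes 2 (without C4b).

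The background counts moved too. Genes called between nonmigrated groups numbered 511, and 2400 at an adjusted p under 0.05, 1550 by DESeq2, 1014 with no filter, 204 with the block, 0 with only those groups, 1104 with all 18 libraries and 120 to 1372 without 1 library. Between migrated groups 0 became 191, 177, 61, 7 (block) and 38 (all 18). The site by migration interaction, 1338 genes, became 2585 by DESeq2, 2431 with all 18 and 652 to 4044 without 1 library. Between steady-state nodes 246 became 665, 490, 521 and 163 (block), and 83 to 180 without 1 library. The node interaction, 1724 genes, became 1057 with the block, 904 with all 18 and 912 to 2099 without 1 library. At an adjusted p under 0.05 the migration comparisons called 5757 (joint) and 5940 (skin) genes and joint migrated against steady state 4143, and skin migration called 2111 with only its groups.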
